A study of Mus musculus with 2 samples.

Results

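The genes described here are 8 genes of the phosphoinositide 3-kinase (PI3K) and AKT pathway, chosen by name: the PI3K subunits *Pik3ca*, *Pik3cb* and *Pik3r1*, the lipid phosphatase *Inpp4b*, the kinases *Akt1*, *Akt2* and *Mtor*, and the S6 kinase *Rps6kb1*. Of these 8, 7 were among the 19465 genes of both sections, and *Rps6kb1* was not analysed here. Their transcripts were counted in 2 cerebellar sections of mice with brain tumors, and levels were set side by side between tumor, edge and neural spots.

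In this pathway, receptors such as HER2 and the insulin receptor recruit PI3K, whose catalytic subunit is held and positioned by a regulatory subunit. The lipid it makes at the membrane brings AKT kinases there to be switched on, and AKT acts on mTOR complexes, which drive protein synthesis, and keeps FOXO transcription factors out of the nucleus. Lipid phosphatases such as INPP4B oppose it. Most of this control is exerted on proteins and lipids, which transcript levels do not measure.

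Both sections came from the same kind of model, called HP, and were untreated. HP mice are B6 mice with a human HER2 transgene carrying V777L, driven by an actin promoter behind a Lox-STOP-Lox element, together with PIK3CA H1047R, and tumors are started by Cre adenovirus injected into the mammary gland. Organoids from their mammary tumors were labeled with luciferase, cloned and injected into the cerebellum of 5-month-old B6 mice, which still have their own immune cells, with MRI from 3 weeks on. In the labels the organoids are HP-F1 (replicate 1) or HP-B6 (replicate 2), each with Cre. Differences between the sections therefore cannot be told apart from differences between these organoids. There is no section of a cerebellum without tumor, so the neural spots of the same sections served as the comparison. The sources do not say whether the probe for *Pik3ca* reads transcripts of the PIK3CA H1047R allele, nor whether the probe for *Erbb2* reads the human transgene, so the levels of these 2 genes cannot be assigned to host or tumor alleles.

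The assay, Visium CytAssist for fixed tissue, hybridizes probes to the transcripts of a section of 5 µm, captures them on an array of barcoded spots and counts them as unique molecular identifiers (UMIs). A spot covers several cells. Section 1 held 63986887 UMIs over 3406 spots and section 2 held 71878333 over 4017, and 3096 spot barcodes occur in both because the array positions are the same by design. Regions were drawn from 17 genes of neurons and glia, none of them a pathway gene. The largest connected group of spots low in these genes was called the tumor side, the edge was the band up to 2 spot steps from its border on either side, and a step is the spacing of neighboring spots. Section 1 had 701 tumor, 245 edge and 2342 neural spots, and section 2 had 636, 403 and 2809.

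**Figure D1:**
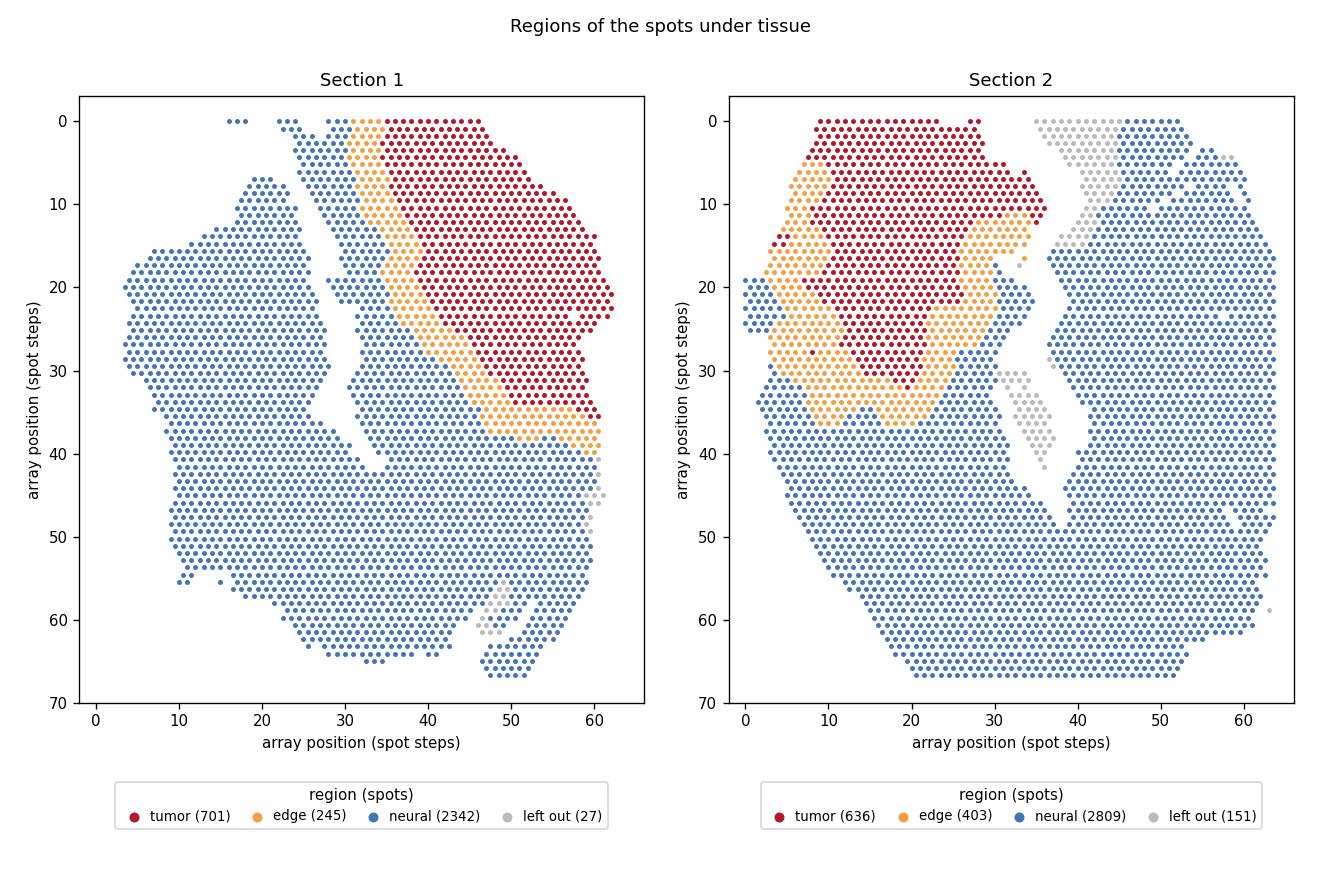
Map of the spots of section 1 (left) and section 2 (right), with both axes in spot steps on the array and colors for tumor, edge, neural and left-out spots. The edge follows the border of the largest group of spots low in the neural genes in each section, with 245 and 403 spots.

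The tumor spots of section 1 did not carry the epithelial markers of a mammary tumor. *Epcam* was at 7.05 CPM (UMI counts relative to the library's total, on the usual CPM scale and with TMM factors) there and at 2164 CPM in those of section 2. The summed level of 10 epithelial markers was 53.5 CPM in its tumor spots and 26.5 in its neural spots, while 7 fibroblast markers summed to 59767. In section 2 the same sums were 13986, 343 and 532. The tumor spots of section 1 are therefore named here by how they were drawn, and levels and fold changes of tumor against neural spots are given below for each section apart, each being the value without the other section. Fewer cells of a type and less RNA per cell cannot be told apart in such sums.

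The UMIs of each region in each section were added up, which gave 6 libraries with totals between 5808086 and 37723399. Regions were compared by edgeR's quasi-likelihood test, blocked by section, and a gene was called when its p-value, adjusted by Benjamini-Hochberg over all 19220 genes tested, was below 0.05. With 2 sections per region the fit has 2 residual degrees of freedom. The 7 genes were counted with 200 to 13473 UMIs per library.

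In TMM-scaled CPM, 6 of the 7 genes were higher and 1, *Mtor*, was lower in tumor than in neural spots in both sections. The 2 tumor and the 2 neural values did not overlap. For *Pik3r1* this holds by a margin inside the counting error, as its level in section 2 was 225 CPM in both regions. For *Pik3cb* 95% Poisson intervals overlapped. They were 32.5 to 36.4 CPM in tumor spots of section 1 and 29.9 to 33.8 CPM in neural spots of section 2. On the TMM scale, values without overlap between tumor and neural spots were found for 61.6% of all genes tested. By library size alone, *Pik3cb* in section 1 and *Pik3r1* in section 2 were lower in tumor than in neural spots. The test called 2 of the 7 genes, *Akt1* and *Akt2*, both higher in tumor, or 28.6%. Over all genes 29.8% were called, 13.6% as higher and 16.1% as lower, so the share of the 7 that was called was near the background. The median log2 fold change was 0.73 for the 7 genes and -0.15 for all genes. Between edge and neural spots the same test called 0 of the 7 (2 at an unadjusted p below 0.05, *Pik3cb* and *Akt2*, and 0 by DESeq2), and 11.8% of all genes, 5.56% as higher and 6.25% as lower. Between tumor and edge spots it called 0 of the 7 (0 at an unadjusted p below 0.05 and 0 by DESeq2) and 1.27% of all genes.

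**Figure D2:**
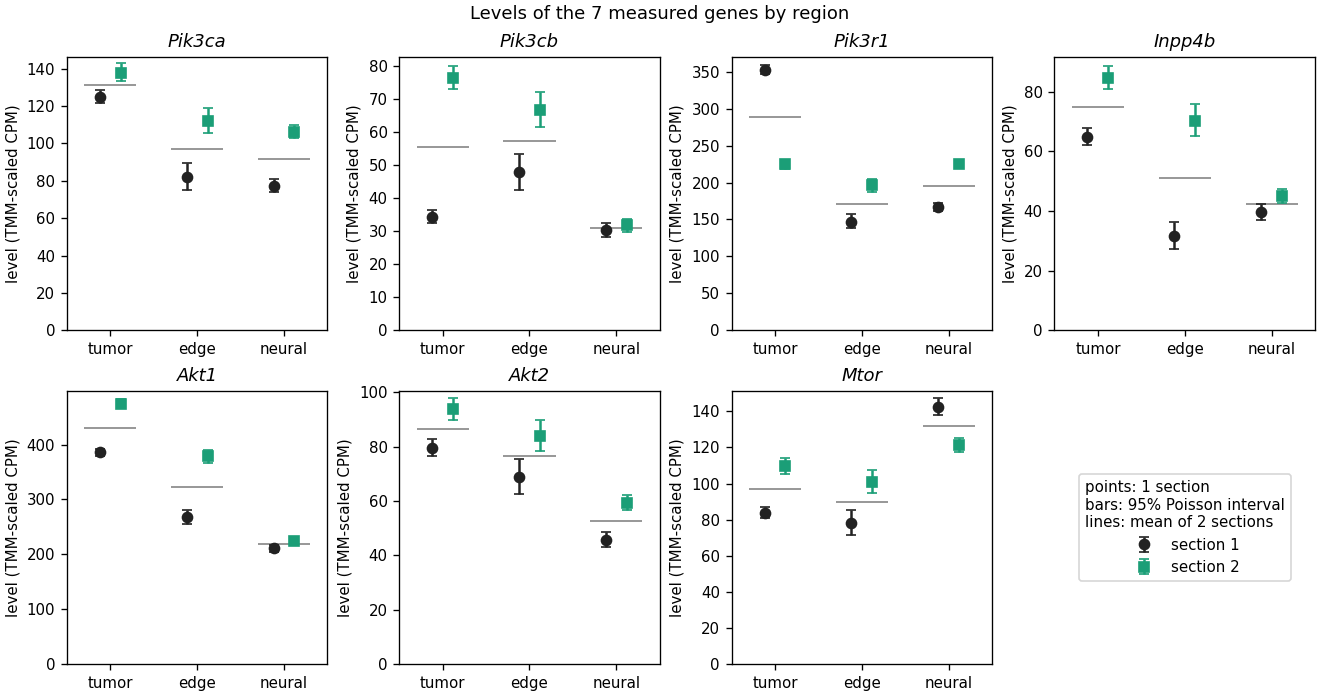
Level of each of the 7 genes in TMM-scaled CPM (vertical axis, from 0) in tumor, edge and neural spots. Points are the 2 sections with 95% Poisson intervals for counting error, and lines are their means. In both sections *Akt1* and *Akt2* had their highest values in tumor and their lowest in neural spots, and *Mtor* was highest in neural spots.

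*Akt1* and *Akt2* encode AKT kinases. *Akt1* (ENSMUSG00000001729, chr12:112653821-112674884) is the form most linked to growth and survival, and *Akt2* (ENSMUSG00000004056, chr7:27591552-27640826) the form most linked to glucose handling. Positions are those of RefSeq on GRCm38.p6, the assembly known as mm10 that the submitters' processing notes name. As these were the genes called, the 300 bases around the outermost annotated start of each are shown, 250 before it and 50 after it, 5′ to 3′ on the strand of the gene (*Akt1* at chr12:112674835-112675134, minus strand, and *Akt2* at chr7:27591302-27591601, plus strand, RefSeq, GRCm38.p6). Capitals mark the letters TGTTTAC or their reverse complement, a core bound by FOXO factors, which AKT controls.
Akt1: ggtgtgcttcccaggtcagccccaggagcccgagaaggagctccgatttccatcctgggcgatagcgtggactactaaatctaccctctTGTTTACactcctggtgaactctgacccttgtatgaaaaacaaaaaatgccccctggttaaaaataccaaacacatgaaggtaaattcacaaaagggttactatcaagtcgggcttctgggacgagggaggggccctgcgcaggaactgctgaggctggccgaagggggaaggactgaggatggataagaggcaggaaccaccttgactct
Akt2: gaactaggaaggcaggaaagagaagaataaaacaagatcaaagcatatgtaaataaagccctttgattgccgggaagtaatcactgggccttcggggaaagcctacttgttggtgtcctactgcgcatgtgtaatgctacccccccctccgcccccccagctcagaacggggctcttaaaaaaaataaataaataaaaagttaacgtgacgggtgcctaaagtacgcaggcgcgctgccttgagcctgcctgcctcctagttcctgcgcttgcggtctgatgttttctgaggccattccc
The core occurs once in the *Akt1* window, from base -161 to base -155 before the start, and these letters are not in the *Akt2* window. Of 32851 promoter windows of the same length, 3.65% hold the core on either strand, and the match is a description of the letters only.

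*Akt1* stood at 386 CPM in the tumor spots of section 1 and 475 CPM in those of section 2. At the edge it was at 268 CPM in section 1 and 378 CPM in section 2. In neural spots it was at 211 CPM and 225 CPM, so the sections were close there and lay below every tumor and edge value. *Akt1* rose in tumor against neural spots with a log2 fold change of 0.97 (SE 0.21, adjusted p = 0.0315 by edgeR), with 0.87 in section 1 and 1.07 in section 2. The edge lay between them and could not be told from either neighbor (log2 fold change against neural spots 0.55, SE 0.21, adjusted p = 0.17 by edgeR, and of tumor against edge 0.42, SE 0.21, adjusted p = 0.468).

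*Akt2* had the same order at a smaller difference. Tumor spots were at 79.6 and 93.7 CPM, edge spots at 68.8 and 84.0 CPM and neural spots at 45.7 and 59.4 CPM in sections 1 and 2. Its edge values overlapped with those of the tumor and lay above both neural values. *Akt2* rose in tumor against neural spots with a log2 fold change of 0.73 (SE 0.17, adjusted p = 0.0373 by edgeR), with 0.80 in section 1 and 0.65 in section 2. The log2 fold change of edge against neural spots was 0.55 (SE 0.17, adjusted p = 0.114 by edgeR), and that of tumor against edge spots was 0.18 (SE 0.17, adjusted p = 0.663).

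Both AKT calls ended with library size as the only scaling (adjusted p = 0.0645 and 0.11 by edgeR) and without the section as a block (adjusted p = 0.0833 and 0.146), with the direction kept. *Pdpk1*, the kinase that phosphorylates AKT in its activation loop, had a log2 fold change of -0.38 (SE 0.18, adjusted p = 0.162 by edgeR), with -0.47 and -0.29 in the sections. It did not pass the threshold.

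**Figure D3:**
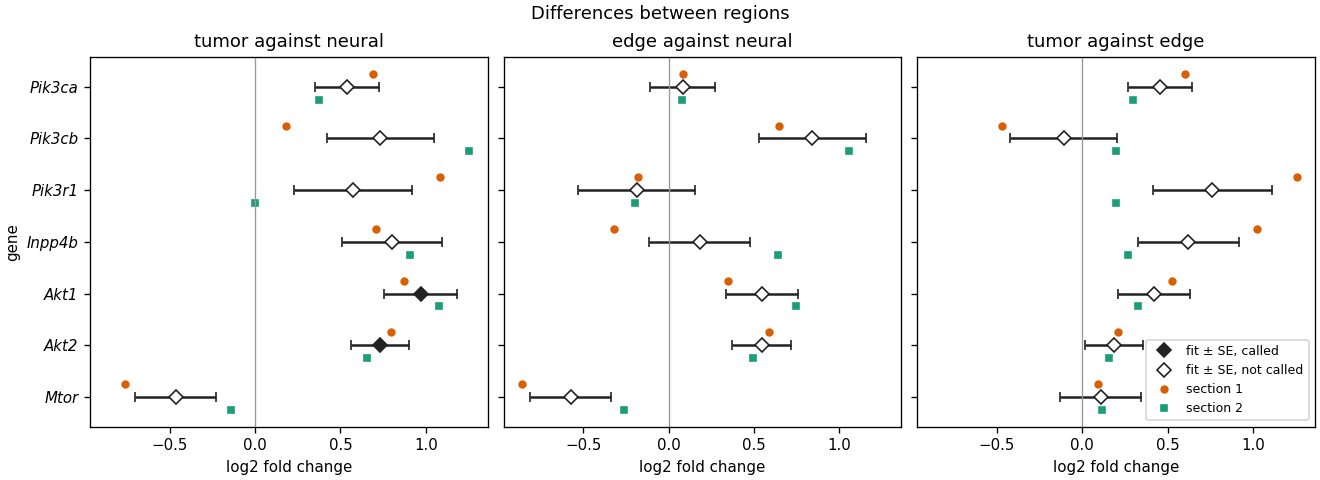
Log2 fold changes (horizontal axis) of the 7 genes for tumor against neural, edge against neural and tumor against edge spots. Diamonds are the fit with its SE, filled where called, circles are section 1 and squares section 2. The filled diamonds are *Akt1* at 0.97 and *Akt2* at 0.73, both in tumor against neural spots.

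Among the catalytic subunits, *Pik3ca* (ENSMUSG00000027665, chr3:32397065-32466112) encodes p110α, the form that growth factor receptors use most. The HP model carries PIK3CA H1047R, which the probe may or may not read. The level of *Pik3ca* was 125 and 138 CPM in tumor spots, 82.1 and 112 CPM at the edge and 77.4 and 106 CPM in neural spots of sections 1 and 2. Both tumor values were above all others, and edge and neural values overlapped. The log2 fold change of tumor against neural spots was 0.54 (SE 0.19, adjusted p = 0.0953 by edgeR), with 0.69 and 0.38 in the sections, and the edge differed from neural spots by 0.08 (SE 0.19, adjusted p = 0.81). Tumor against neural spots passed the threshold in 1 of 11 alternative fits, those with raw UMIs per spot and regions from single spots aside.

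*Pik3cb* (ENSMUSG00000032462, chr9:99038402-99140235) encodes p110β. Neural spots of both sections held nearly the same level of it, 30.3 and 31.8 CPM, and the edge was at 47.8 and 66.6 CPM. The tumor spots of section 1 were at 34.4 CPM and those of section 2 at 76.5 CPM, so that in section 1 the edge was the highest region and in section 2 the tumor. The log2 fold change of edge against neural spots was 0.84 (SE 0.31, adjusted p = 0.159 by edgeR) and that of tumor against neural spots 0.73 (SE 0.31, adjusted p = 0.141), made up of 0.18 and 1.25.

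*Pik3r1* (ENSMUSG00000041417, chr13:101680761-101768217) encodes p85α, the main regulatory subunit. The tumor spots of section 1 held 352 CPM of it, and those of section 2 held 225 CPM. At the edge it was at 147 and 196 CPM and in neural spots at 166 and 225 CPM. Its log2 fold change of tumor against neural spots, 0.57 (SE 0.35, adjusted p = 0.251 by edgeR), came from section 1 alone, with 1.08 there and 0.00 in section 2.

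*Inpp4b* (ENSMUSG00000037940, chr8:81342266-82134312) encodes a phosphatase that removes a phosphate from the lipid formed downstream of PI3K. It stood at 64.9 and 84.7 CPM in tumor spots and at 39.6 and 45.0 CPM in neural spots, without overlap. The edge was unlike between the sections, at 31.6 CPM in section 1, the lowest of its 6 values, and 70.3 CPM in section 2. The log2 fold change of tumor against neural spots was 0.80 (SE 0.29, adjusted p = 0.102 by edgeR), with 0.71 and 0.91 in the sections, and it passed the threshold with RLE factors (0.94, adjusted p = 0.0473), with DESeq2 (0.94, adjusted p = 0.0232) and with regions drawn from single spots (0.84, adjusted p = 0.0473).

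*Mtor* (ENSMUSG00000028991, chr4:148448582-148557685) encodes the kinase at the center of both TOR complexes. It was the 1 gene of the 7 with its highest values in neural spots, at 143 and 121 CPM, against 83.7 and 110 CPM in tumor and 78.3 and 101 CPM in edge spots. The log2 fold change of tumor against neural spots was -0.47 (SE 0.24, adjusted p = 0.192 by edgeR), with -0.76 in section 1 and -0.14 in section 2. For edge against neural spots it was -0.57 (SE 0.24, adjusted p = 0.193 by edgeR), with -0.86 and -0.26 in the sections. This order holds for levels relative to all transcripts and turns with raw UMIs per spot (log2 fold change of tumor against neural spots 1.50), since the median spot held 56401 and 42174.5 UMIs in tumor but 7631 and 9854 in neural spots. On that scale all 7 genes were higher in tumor spots, and the median over all genes was 1.81.

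Spots were next grouped in rings by their distance from the tumor border, each ring with at least 20 spots, which gave 58 rings in section 1 and 61 in section 2. Levels over a span of steps sum the rings of at least 10 spots. Distance was measured to the tumor side only, so neural spots beside a left-out group can count as far. These levels are CPM by library size and are described without a test, since the rings of a section are not replicates. The TMM factors, not used here, were 0.925 and 0.863 for tumor, 1.09 and 0.930 for edge and 1.19 and 1.04 for neural spots in sections 1 and 2. On the TMM scale neural levels would thus be lower relative to tumor levels. *Akt1* ran flat through the tumor, with 350 CPM at 10 or more steps inside the border and 363 CPM at 3 to 9 steps inside it in section 1, and 421 and 407 CPM in section 2. It then dropped across the edge, from 315 to 257 CPM between its tumor and neural sides in section 1 and from 369 to 311 CPM in section 2, to 226 and 240 CPM at 3 to 9 steps outside.

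In CPM by library size *Akt2* did not step down at the border. With the TMM factors its near neural level would lie below that of the tumor in both sections. At 3 to 9 steps into the neural tissue it was at 78.2 and 77.9 CPM, as high as at 3 to 9 steps inside the tumor (75.0 and 81.1 CPM), and it was lower, at 45.3 and 58.4 CPM, in neural spots 10 or more steps away. *Akt1* was at 226 and 240 CPM in near and at 260 and 234 CPM in far neural spots of sections 1 and 2. Its near spots in section 1 thus lay below the far ones (95% Poisson intervals 213 to 238 and 252 to 268 CPM), unlike those of *Akt2*. *Mtor* ran the other way from *Akt2*, at 122 and 102 CPM in near and 187 and 132 CPM in far neural spots.

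*Pik3r1* had the steepest course in section 1. Its level was 738 CPM (95% Poisson interval 683 to 797) in the innermost ring of at least 20 spots, 19 steps inside the border. It was 446 CPM over the rings 10 or more steps inside and 217 CPM at 3 to 9 steps inside. Section 2, whose tumor has no rings that deep, was at 182 and 199 CPM in the same bands. At 3 to 9 steps inside the border the 2 sections were thus at similar levels, and they parted deeper in the tumor. In neural spots 3 to 9 and 10 or more steps outside, *Pik3r1* was at 194 and 199 CPM in section 1. In section 2 these neural spots were at 242 and 233 CPM, above both tumor bands by library size. In TMM-scaled CPM its tumor and neural spots were both at 225 CPM. The fibroblast markers of section 1 summed to 59767 CPM in tumor, 23708 CPM in edge and 647 CPM in neural spots. Within the tumor and edge spots of section 1, the fifth richest in these markers held 273 CPM of *Pik3r1* against 315 CPM in the others (log2 ratio -0.21). In section 2 it was higher, at 215 against 186 CPM (0.21). The part of fibroblasts in the level of *Pik3r1* was not tested.

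*Pik3cb* went the opposite way in section 1, with 28.0 CPM in the deep and 35.3 CPM in the outer tumor against 51.7 and 52.5 CPM on the tumor and neural sides of the edge. In section 2 it was highest at 3 to 9 steps inside the border, at 69.5 CPM. Near and far neural spots were at 33.2 and 37.1 CPM in section 1, both above the deep tumor by library size. In TMM-scaled CPM all tumor spots of section 1 together were above its neural spots (34.4 against 30.3 CPM). In section 2 they were at 37.3 and 32.3 CPM. The edge spots were the richest in macrophage markers, whose 7 genes summed to 2662 and 2162 CPM there, 1594 and 846 CPM in tumor and 337 and 431 CPM in neural spots. In section 1 the edge led through *Cd68* (1302 against 673 CPM in tumor), *Arg1* (845 against 82.3 CPM) and *Itgam* (222 against 160 CPM), and the other 4 markers were higher in tumor, such as *Csf1r* (447 against 225 CPM) and *Mrc1* (154 against 21.5 CPM). In section 2 all 7 were higher at the edge than in the tumor. *Pik3ca* lay between 87.0 and 122 CPM from the deep tumor to the far neural tissue of section 1 and between 94.8 and 122 CPM in section 2.

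**Figure D4:**
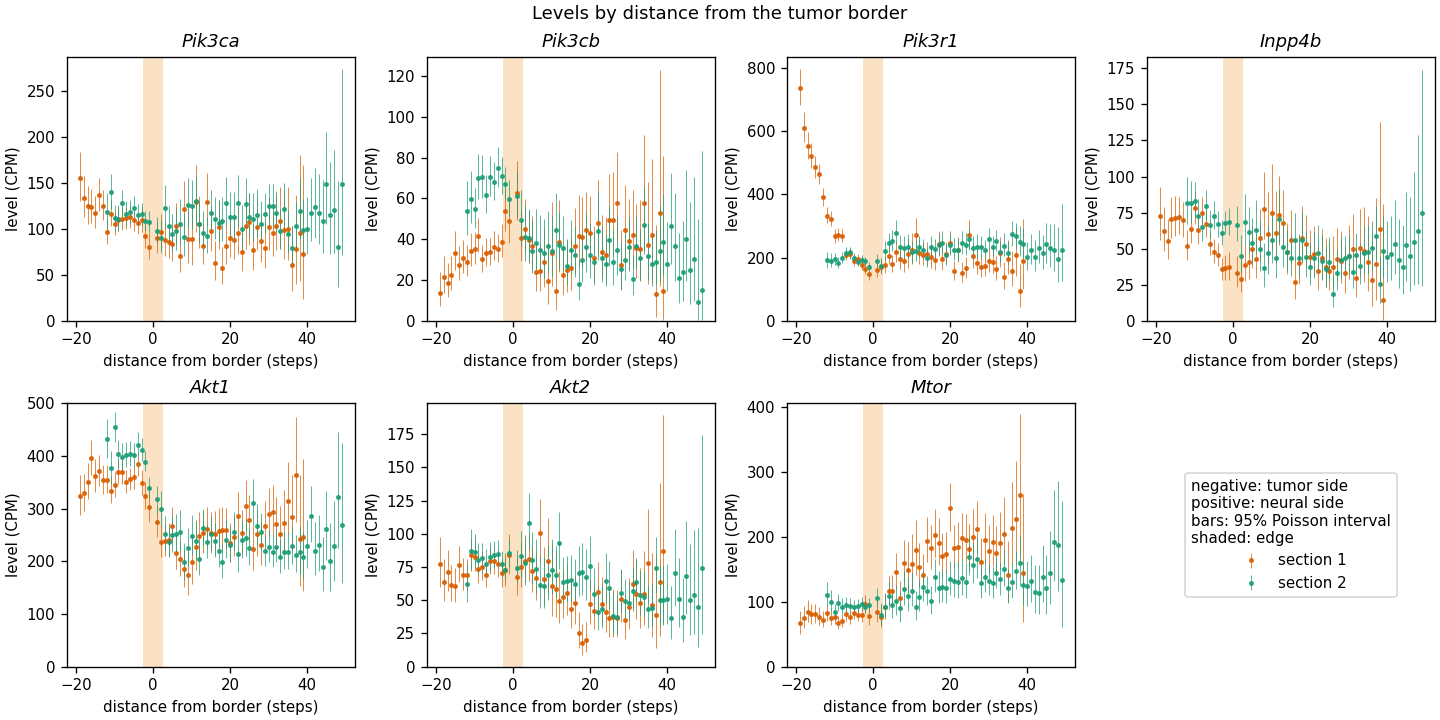
Level of the 7 genes in CPM (vertical axis, from 0) by distance from the tumor border in spot steps (horizontal axis, negative inside the tumor), with 1 point per ring, 95% Poisson intervals and the edge shaded. *Akt1* dropped across the edge in both sections, and *Pik3r1* climbed to 738 CPM in the innermost ring drawn for section 1.

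The 7 genes did not share 1 course over the 119 rings. The ring profiles, taken as log2(CPM + 1) and centered in each section, correlated most between *Pik3ca* and *Pik3r1* (Pearson's r = 0.49) and were most opposed for *Akt2* and *Mtor* (r = -0.64) and for *Akt1* and *Mtor* (r = -0.52). Rings of a section share a mouse and a library, and the outer neural rings hold few UMIs, so these values carry no test. Of 11657 genes with a mean of at least 10 CPM over the rings, the profile of *Akt1* was most like those of *Enc1* (r = 0.89) and *Eef2* (r = 0.87). *Mtor* was most like *Pfdn2* and *Dync1li2* (both r = 0.92), and *Akt2* most like *Map4k4* (r = 0.76) and *Zc3hav1* (r = 0.75). *Pik3r1* was most like *Cilp* (r = 0.74) and *Abi3bp* (r = 0.70), both genes of extracellular matrix proteins, but within section 2 these values were 0.10 and 0.35. *Pik3cb* was most like *Pwwp2b* and *Nploc4* (both r = 0.66), *Inpp4b* most like *Top2b* (r = 0.65) and *Dnajc25* (r = 0.64), and *Pik3ca* most like *Cask* (r = 0.55) and *Rasa1* (r = 0.54), with 0.17 and 0.31 within section 2.

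Within the neural tissue, the fifth of spots with the highest summed level of a marker list was set against the other neural spots. *Akt2* was higher in spots rich in Purkinje cell markers, with a log2 ratio of 0.72 in section 1 and 0.79 in section 2, and *Inpp4b* likewise, with 0.75 and 0.67. *Pik3cb* was lower there (-0.49 and -0.80), as was *Akt1* (-0.27 and -0.28). In spots rich in granule neuron markers *Akt2* (0.50 and 0.33) and *Inpp4b* (0.53 and 0.36) were again higher, and *Akt1* (-0.38 and -0.50) and *Mtor* (-0.33 and -0.40) lower. *Akt2* was also higher in spots rich in astrocyte markers (0.61 and 0.58). Spots rich in oligodendrocyte markers were lower in *Akt2* (-0.26 and -0.36) and *Inpp4b* (-0.41 and -0.43). By the Purkinje cell, granule neuron and oligodendrocyte markers *Akt2* and *Inpp4b* thus varied together, and in the same sense in both sections. By microglia markers *Akt2* was unlike between the sections (0.60 and -0.05) and did not vary together with *Inpp4b* (-0.09 and 0.11). Not all lists and genes are given here. *Akt2* also fell with distance from the border within neural tissue, so cell layer and distance cannot be told apart. These ratios are descriptions of 1 mouse each, in which a spot holds several cells.

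Over tumor and edge spots as 1 set, the fifth richest in macrophage markers was lower in *Inpp4b* (log2 ratio -1.28 in section 1 and -0.40 in section 2), *Pik3r1* (-1.05 and -0.40) and *Pik3ca* (-0.40 and -0.26). *Pik3cb* was higher there in section 1 (0.78) and level in section 2 (-0.01). The fifth richest in oligodendrocyte markers, which selects spots near the border, gave like values for *Inpp4b* (-1.13 and -0.38), *Pik3r1* (-1.05 and -0.21) and *Pik3cb* (0.90 and -0.07), so macrophage content and place cannot be told apart here.

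The other genes of the pathway were taken from a list of 56, of which 53 were tested. In tumor against neural spots 13 were higher and 4 lower by the same call, or 32.1% against 29.8% of all genes, with a median log2 fold change of 0.47 against -0.15. In edge against neural spots 4 were higher and 1 lower, or 9.43% against 11.8% of all genes, and in tumor against edge spots edgeR called 0 (8 at an unadjusted p below 0.05, and 1 by DESeq2). Without the section as a block, 5 were higher and 2 lower in tumor against neural spots. *Rps6*, the ribosomal protein that S6 kinase phosphorylates, was not analysed here.

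Of the receptors and adaptors, 3 of 8 rose and 1 fell, beside 13.6% of all genes higher and 16.1% lower. *Erbb2*, the mouse gene of HER2, was at 17.5 and 59.9 CPM in tumor against 5.08 and 6.89 CPM in neural spots, and it rose with a log2 fold change of 2.43 (adjusted p = 0.0173 by edgeR), made up of 1.69 in section 1 and 3.03 in section 2. *Egfr*, a receptor of the same family, rose by 1.68 on that scale (1.99 and 1.27 in the sections) and the insulin receptor substrate *Irs1* by 1.10 (1.13 and 1.05), while the substrate *Irs2* fell by 1.49 (-1.09 and -1.88). *Irs1* and *Irs2* thus lay on opposite sides in both sections.

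Of the 7 lipid phosphatases and inhibitors, 1 rose and 2 fell, beside 13.6% of all genes higher and 16.1% lower. *Inppl1*, which encodes the phosphatase SHIP2, rose with a log2 fold change of 1.24 (adjusted p = 0.0136 by edgeR), with 1.37 and 1.10 in the sections. *Inpp4a*, the paralog of *Inpp4b*, was at 41.3 and 30.5 CPM in tumor against 126 and 139 CPM in neural spots and fell by 1.89 (adjusted p = 0.0074 by edgeR, with -1.60 and -2.17 in the sections), the other way from the values of *Inpp4b*. *Phlpp1*, a phosphatase that acts on AKT, fell by 0.99 (-1.29 and -0.66).

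Of 10 genes of TOR complexes and their regulators 1 was called, *Deptor*, an inhibitor that binds mTOR, which rose with a log2 fold change of 1.64 (adjusted p = 0.0129 by edgeR, with 1.53 and 1.65 in the sections) from low levels of 6.41 and 12.7 CPM in neural spots. Downstream of mTOR, *Eif4ebp1*, which encodes a repressor of translation that mTOR inactivates, rose from 16.0 and 19.6 CPM in neural to 139 and 106 CPM in tumor spots (log2 fold change 2.75, adjusted p = 0.0064 by edgeR, with 3.08 and 2.41 in the sections), and its relative *Eif4ebp2* rose by 1.16 (1.35 and 0.95). *Foxo1* rose by 0.94 (0.86 and 1.02), and these 3 were those called of 8 downstream genes, beside 29.8% of all genes.

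Of 9 genes that FOXO factors are known to activate, 4 rose and 1 fell, beside 13.6% and 16.1% of all genes tested. *Txnip*, which encodes an inhibitor of glucose uptake, was at 347 and 388 CPM in tumor against 50.5 and 62.8 CPM in neural spots (log2 fold change 2.71, adjusted p = 0.0056 by edgeR, with 2.77 and 2.62 in the sections). *Bcl2l11*, which encodes the death-promoting protein BIM, rose by 2.69 (adjusted p = 0.0039 by edgeR, with 2.43 and 2.88 in the sections), the cell cycle gene *Ccng2* by 1.32 (0.76 and 1.87) and the cell cycle inhibitor *Cdkn1b* by 0.75 (0.63 and 0.87). *Pink1*, a kinase of mitochondrial quality control, fell by 1.58 (-2.09 and -1.04). *Bcl2l11*, *Txnip*, *Eif4ebp1* and *Inppl1* were also the 4 genes called as higher at the edge, and *Inpp4a* the 1 called as lower there.

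Of the 6 remaining class I subunits, *Pik3r2*, which encodes p85β, was the 1 that was called, with a log2 fold change of 0.83 (adjusted p = 0.0294 by edgeR, with 0.89 and 0.75 in the sections). Over all genes 29.8% were called, 13.6% as higher. Of the 3 class II and III genes edgeR called 0 (2 at an unadjusted p below 0.05, and by DESeq2 1 higher and 1 lower). The subunits known best from leukocytes were high in the tumor spots of section 1 and not in those of section 2. *Pik3cg*, which encodes p110γ, was at 68.5 and 14.1 CPM there against 11.7 and 13.5 CPM in neural spots, and *Pik3r5*, its partner, at 46.2 and 7.54 CPM against 6.16 and 7.57 CPM. These genes were chosen after their values were seen. The T cell markers, 5 genes, summed to 227 and 9.62 CPM in the same tumor spots, the macrophage markers to 1594 and 846 CPM and the B and plasma cell markers, 4 genes, to 838 and 14.7 CPM, and their part in these levels was not tested.

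**Figure D5:**
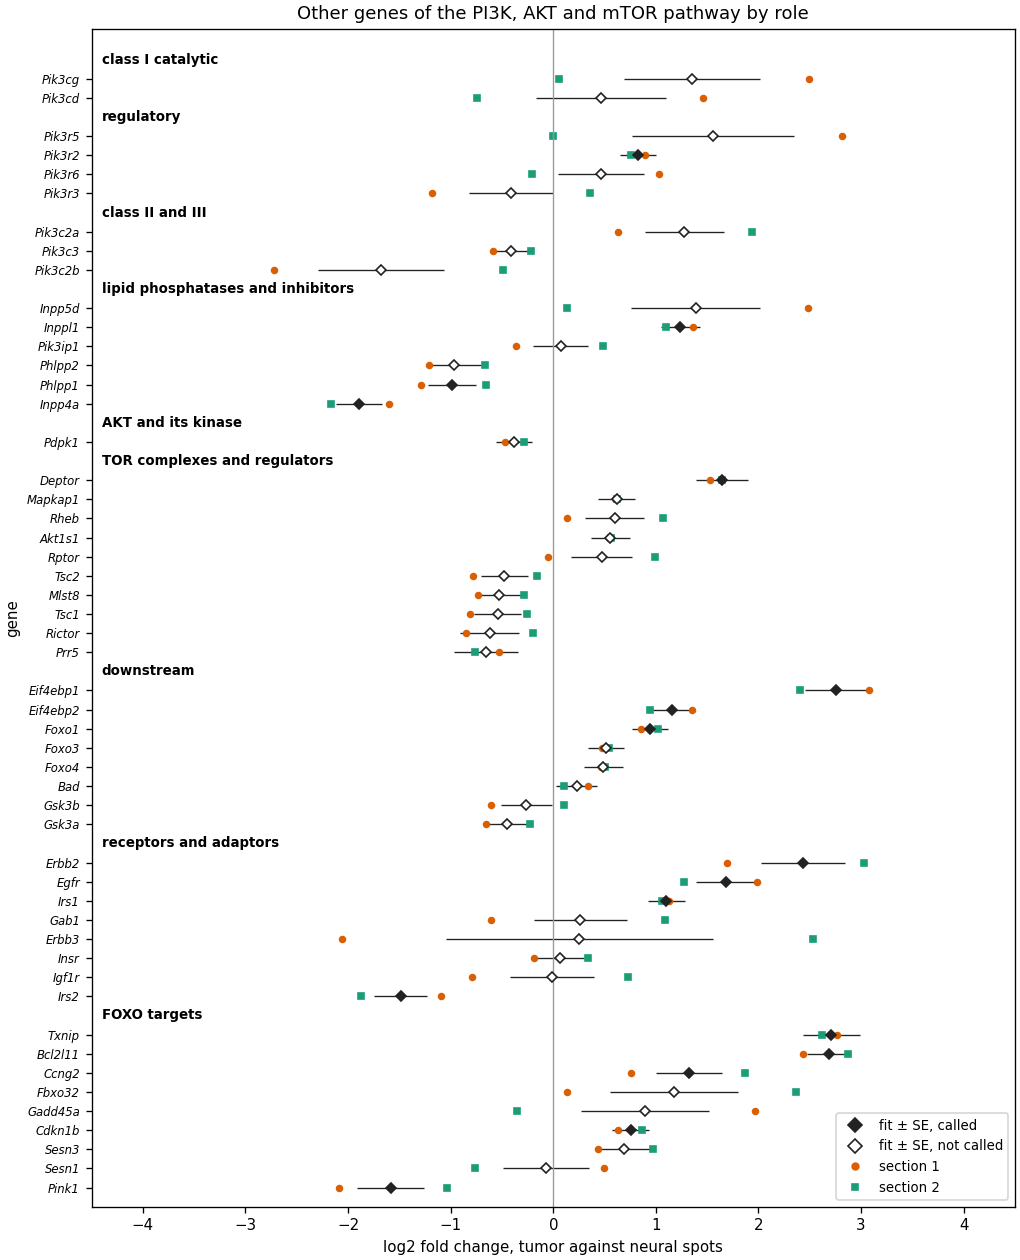
Log2 fold changes of tumor against neural spots (horizontal axis) for 51 of the other pathway genes, grouped by role. Diamonds are the fit with its SE, filled where called, circles are section 1 and squares section 2. The FOXO targets *Txnip* (2.71) and *Bcl2l11* (2.69) and the translation repressor *Eif4ebp1* (2.75) stand farthest to the right among the called genes, and *Inpp4a* (-1.89) farthest to the left.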

How the data were processed

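Visium CytAssist libraries of 2 sections, each a biological replicate per the labels, were analysed. Raw UMI counts for every gene and spot were deposited, which the authors made with Space Ranger 2.1.1 on mm10 (submitters' processing notes). Regions of the authors were not used. Spots under tissue with at least 500 UMIs and 10 genes were kept (3315 and 3999). The neural score was the mean log2(CPM + 10) of 17 of 18 listed genes over a spot and its up to 6 neighbors, with Otsu's threshold in each section. Low-score spots apart from the main group were left out (27 and 151). In section 2 the next largest low-score group held 99 spots. Spots above the threshold around it counted as neural unless they lay in the edge.

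Summed counts were fitted with edgeR 4.0.16 in R 4.3.3 (TMM, filterByExpr by region, robust glmQLFit, glmQLFTest), all regions together, with the section as a block because the regions of a section come from 1 mouse. This block lowered the common dispersion from 0.175 to 0.0951. The fits were tested on simulated data. Fold changes within a section used TMM-scaled CPM plus 0.5. Intervals are exact Poisson intervals at 95% and cover counting error only. Rings, bands and marker-rich spots were calculated with pandas 2.3.3, scipy 1.17.1 and numpy 2.4.6 (Python 3.11.15), and plots with matplotlib 3.10.9.

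Named were the 8 genes, those other pathway genes called in tumor against neural spots with a log2 fold change beyond 1 and 1 direction in both sections, *Pdpk1*, *Erbb2* and *Rps6* in any case, and for each of the 7 genes the 2 most like it over rings. *Phlpp1*, *Foxo1*, *Cdkn1b*, *Pik3r2*, *Pik3cg* and *Pik3r5* were named after their values were seen. The genes and lists were chosen with earlier results of these data known. *Rps6kb1*, *Rps6kb2*, *Rps6* and *Eif4e* were not analysed here, and 2 further genes that were to be named in any case are not reported here. Alternatives were RLE factors, library size alone, raw UMIs per spot, DESeq2 1.42.0, no filter, no block, other edges, a minimum of 1000 UMIs, other scores for the regions, each section alone, smaller rings and a narrower class of marker-rich spots.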

Additional observations from a re-analysis of the deposited data

How the results depend on the processing

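Over 12 fitted alternatives and 3 comparisons, 229 of 252 values of the 7 genes kept their direction and their side of the threshold. The fit with regions drawn from single spots is not in this count, and there *Inpp4b* passed the threshold in tumor against neural spots. Each section alone, in TMM-scaled CPM, gave a value with no test and turned the direction of tumor against neural spots for none of the 7. By library size alone, *Pik3cb* in section 1 and *Pik3r1* in section 2 turned to lower in tumor spots. In TMM-scaled CPM, *Inpp4b* in edge against neural spots was at -0.32 in section 1 (0.18 in the fit). *Pik3cb* in tumor against edge spots was at 0.20 in section 2 (-0.11 in the fit). Among the fits, values turned were, with raw UMIs per spot, *Mtor* in tumor against neural spots (1.50) and in edge against neural spots (0.62), *Pik3r1* in edge against neural spots (0.96) and *Pik3cb* in tumor against edge spots (0.65). With library size as the only scaling, *Pik3ca* in edge against neural spots turned to -0.064 and *Mtor* in tumor against edge spots to -0.059. The number of the 7 genes called in tumor against neural spots went from 2 to 0 with library size only and to 0 without the replicate block, and to 7 with raw UMIs per spot. In edge against neural spots it went from 0 to 5 with raw UMIs per spot and to 1, *Akt2*, with the edge split into its sides. Of the 53 other pathway genes, 13 were higher and 4 lower in tumor against neural spots, against 48 and 0 with raw UMIs per spot and 5 and 2 without the replicate block. The cause was not tested.

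Over all genes, calls in tumor against neural spots went from 5720 to 15536 with raw UMIs per spot and to 3670 without the replicate block. In edge against neural spots they went from 2270 to 8218 with raw UMIs per spot, 4390 with DESeq2, 1422 without the replicate block and 4724 with the edge split. In tumor against edge spots they went from 244 to 509 with library size only, 0 with raw UMIs per spot, 1158 with DESeq2, 437 without the replicate block, 496 with an edge of 1 step, 0 with an edge of 3 steps, 1124 with the edge split, 0 with the score of single spots and 447 with 9 genes of the neural panel. Library size alone moved the median log2 fold change over all genes in tumor against neural spots from -0.15 to -0.47, and the share of calls that were higher from 45.9% to 26.0%, against 54.0% with RLE factors and 58.0% with DESeq2.

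With rings of at least 10 spots, the highest ring of *Akt2* went to 128 CPM in section 1 and 137 CPM in section 2, and that of *Inpp4b* to 103 CPM in section 2, all in the far neural tissue, where rings hold few UMIs. In the 1 in 10 spots richest in Purkinje cell markers the mean log2 ratio over sections was 0.54 in place of 0.71 for *Inpp4b* and -0.23 in place of -0.27 for *Akt1*. By granule neuron markers it was 0.25 in place of 0.42 for *Akt2* and -0.50 in place of -0.37 for *Mtor*. By astrocyte markers it was 0.69 in place of 0.60 for *Akt2*, and by oligodendrocyte markers -0.46 in place of -0.42 for *Inpp4b*. *Akt2* by oligodendrocyte markers went from -0.26 to -0.51 in section 1 and from -0.36 to -0.10 in section 2, with a mean of -0.30 in place of -0.31. In tumor and edge spots the mean ratio was -0.43 in place of -0.33 for *Pik3ca* by macrophage markers. For *Pik3r1* by fibroblast markers it turned from 0.00 to -0.064. With 2 sections and 2 residual degrees of freedom, a value that missed the threshold does not show that levels were alike.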
